A study of Mus musculus with 14 samples.

Results

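The chemokine receptors described here are Ccr7, Ccr1, Ccr2, Cxcr4, Cx3cr1, Ackr3 and Ccrl2, measured in mouse dendritic cells grown from bone marrow. They were chosen by name, with earlier results of these data known, as receptors that dendritic cells and their precursors are known to carry. For each gene the probe set that the array annotation gives to that gene alone, with the highest mean over all arrays, was kept. They are 7 of 18193 genes so represented. All 7 passed the filter on dim genes, a level above the overall median of 7.52 log2 on at least 2 arrays, which left 12172 genes to test. Ackr3 lay above that median on 9 of 14 arrays and the other members on all 14.

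Progenitors of BALB/c mice were cultured for 8 days with recombinant GM-CSF, the growth factor that drives dendritic cell development in such cultures, with feeding on days 3 and 6. Cells were pre-treated for 1 h and then stimulated or left alone, in 7 groups of 2 arrays, and the whole study was done as 2 independent experiments, with 1 array of each group in each. The groups were CLIK148 at 5 µM then CpG at 25 µg/mL, DMSO then CpG, CA074Me at 5 µM then TNF-alpha at 500 U/mL, DMSO then TNF-alpha, CLIK148 alone, CA074Me alone, and DMSO alone at 0.01%. CLIK148 is known as an inhibitor of cathepsin L and CA074Me as an inhibitor of cathepsin B, 2 proteases of the lysosome. CpG is DNA sensed by Toll-like receptor 9, and TNF-alpha is an inflammatory cytokine. The groups with DMSO then CpG and DMSO then TNF-alpha are called CpG and TNF cultures below, and the solvent alone DMSO cultures.

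Chemokine receptors are G protein-coupled receptors that steer cells along gradients of chemokines. Immature dendritic cells and their monocyte precursors carry receptors for inflammatory chemokines, such as Ccr1 and Ccr2. On maturation dendritic cells are known to gain Ccr7, which guides them to lymph nodes. Ackr3 and Ccrl2 are atypical receptors, which bind chemoattractants without the usual G protein signal.

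The arrays were even in scale, with medians of 7.48 to 7.54 log2. Of the dendritic cell markers, 10 of 10 lay above the overall median on all 14 arrays, as did 7 of 8 macrophage and monocyte markers, 8 of 8 granulocyte markers and 4 of 5 mast cell and basophil markers. Of the lymphocyte and plasmacytoid markers, 2 of 8 did so. The cultures thus carried RNA typical of several myeloid cell types. In such bulk RNA, fewer cells of a type and less RNA per cell cannot be told apart.

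Ccr7 binds Ccl19 and Ccl21. It measured 13.89 and 13.75 log2 in CLIK148 plus CpG cultures of experiments 1 and 2, and 14.10 and 13.97 in CpG cultures. In CA074Me plus TNF cultures it measured 13.30 and 13.76, and in TNF cultures 13.22 and 13.70. It measured 12.29 and 13.23 in CLIK148 cultures, 12.39 and 13.30 in CA074Me cultures, and 12.41 and 13.32 in DMSO cultures. All 4 CpG arrays lay above all 6 arrays without a stimulus. The TNF arrays of experiment 1 lay below the DMSO array of experiment 2, so TNF and DMSO cultures overlapped. In the order of group means, CpG was highest and was the only group whose arrays did not overlap those of the next group.

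Ccr7 averaged 14.04 ± 0.09 log2 in CpG cultures and 12.87 ± 0.65 in DMSO cultures (SD, n = 2 each). The log2 difference was 1.17 ± 0.41 (SE), or 2.25-fold, with an adjusted p of 0.183 in limma. With the experiment as a block, which pairs the arrays, the SE was 0.28 and the adjusted p 0.0220 in limma. That SE comes from the model of all 7 groups. In a paired fit of these 2 groups alone the adjusted p was 0.277 in limma. The difference was 1.69 in experiment 1 and 0.65 in experiment 2. The block counts among the alternatives to the unpaired fit given below. In each such range for Ccr7, Ccr1 and Ccr2 the lowest adjusted p is that of the block. Over the 10 alternatives tried on the unpaired fit the adjusted p ran between 0.0220 and 0.675, and in the paired fit it was 0.192 without DMSO replicate 1 and 0.173 without CpG replicate 1.

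With CLIK148 in both groups the pattern recurred. CLIK148 plus CpG cultures exceeded CLIK148 cultures by 1.07 ± 0.41 log2, with an adjusted p of 0.248 in limma and 0.0333 with the block. A paired limma fit of the compared groups alone gave an adjusted p of 0.183. The difference was 1.60 in experiment 1 and 0.53 in experiment 2. In the paired fit this call was lost without CLIK148 replicate 1, CLIK148 replicate 2 or CLIK148 plus CpG replicate 1, at limma adjusted p of 0.251, 0.0666 and 0.262, and over 10 alternatives on the unpaired fit the adjusted p ran between 0.0333 and 0.823.

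Under TNF the Ccr7 differences were smaller and not called in either fit. TNF minus DMSO was 0.59 ± 0.41 log2 (0.82 and 0.37 in experiments 1 and 2), with an adjusted p of 0.826 in limma. CA074Me plus TNF minus CA074Me was 0.68 (0.90 and 0.46), with an adjusted p of 0.591 in limma. CpG minus TNF was 0.58, with an adjusted p of 0.928 in limma and an interval of -0.05 to 1.21 with the block. CpG and TNF cultures are each set against the same DMSO arrays.

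**Figure D1:**
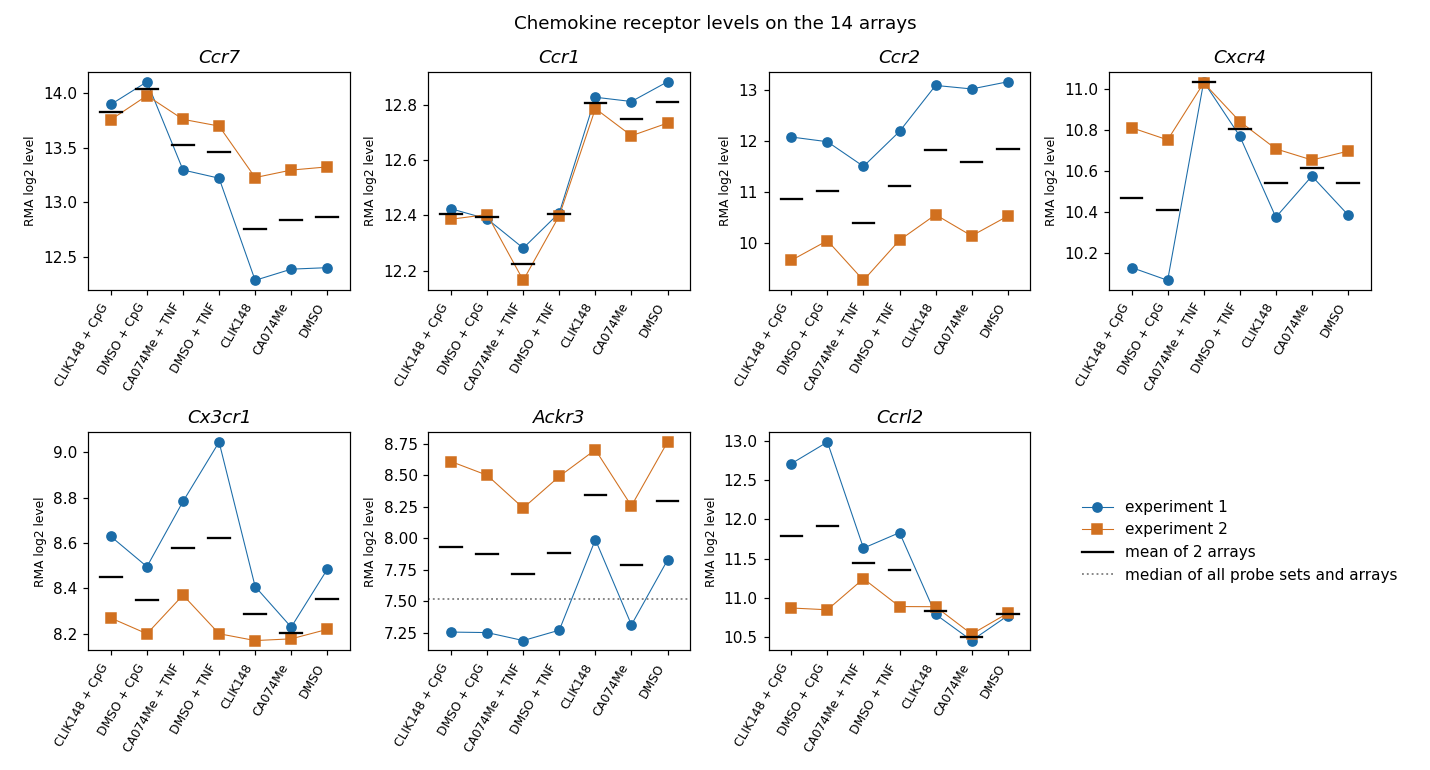
RMA log2 level (vertical axis, a separate scale for each gene) of the 7 receptors in the 7 groups. Circles and squares are single arrays of experiments 1 and 2, thin lines join the arrays of an experiment, black bars are means of 2 arrays, and the dotted line marks the overall median of 7.52. Ccr1 lies close together in both experiments, and Ccr2 is lower in experiment 2 in all 7 groups.

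Ccr1, a receptor for Ccl3 and Ccl5, had little spread between its arrays. It measured 12.42 and 12.39 log2 in CLIK148 plus CpG cultures, 12.39 and 12.40 in CpG cultures, 12.28 and 12.17 in CA074Me plus TNF cultures, and 12.41 and 12.40 in TNF cultures. It measured 12.83 and 12.79 in CLIK148 cultures, 12.81 and 12.69 in CA074Me cultures, and 12.88 and 12.73 in DMSO cultures. All 8 stimulated arrays lay below all 6 unstimulated arrays. Within the stimulated arrays, both CA074Me plus TNF arrays lay below the other 6. Ccr1 was the 1 member of 7 called over any of the 7 groups in the unpaired F test (adjusted p = 0.0185 in limma), beside 1.86% of all tested genes. That call was lost without DMSO replicate 1, CLIK148 replicate 1, CLIK148 replicate 2, CA074Me replicate 1 or CA074Me plus TNF replicate 2.

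Ccr1 was 1.33-fold lower in CpG cultures than in DMSO cultures, a log2 difference of -0.41 ± 0.08 with an adjusted p of 0.0382 in limma. The difference was -0.49 in experiment 1 and -0.33 in experiment 2. It was the 1 member of 7 called in this comparison, beside 1.92% of all tested genes. The call was lost under reference-gene scaling (limma adjusted p = 0.0921) and in a fit of these 2 groups alone (0.537). It was also lost without DMSO replicate 1, DMSO replicate 2 or CpG replicate 1. With the block the adjusted p was 0.0043 in limma. That paired call was lost in a paired fit of these 2 groups alone (limma adjusted p = 0.299). It was also lost without DMSO replicate 1, where the paired difference was -0.36.

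Ccr1 was also 1.44-fold lower in CA074Me plus TNF cultures than in CA074Me cultures. The log2 difference was -0.53 ± 0.08, with an adjusted p of 0.0151 in limma, and it was -0.53 in experiment 1 and -0.52 in experiment 2. Ccr1 was the 1 member of 7 called there, beside 1.31% of all tested genes. This call was lost without any 1 of the 4 arrays, at limma adjusted p of 0.0533 to 0.174, in a fit of these 2 groups alone (0.168), and with the mean of both probe sets (0.0590), and with the block the adjusted p was 0.0019.

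For the other stimulus comparisons Ccr1 was called in the paired fit alone. CLIK148 plus CpG minus CLIK148 was -0.40 ± 0.08, with an adjusted p of 0.0602 in limma and 0.0064 with the block. TNF minus DMSO was -0.40 ± 0.08, with an adjusted p of 0.123 in limma and 0.0150 with the block. Paired limma fits of the compared groups alone gave an adjusted p of 0.0655 for TNF and 0.163 for CpG with CLIK148. In the paired fit the TNF call was lost without DMSO replicate 1, DMSO replicate 2 or TNF replicate 1 (limma adjusted p = 0.178, 0.0763 and 0.192), and the CpG call with CLIK148 without CLIK148 replicate 1 (0.0597), CLIK148 replicate 2 (0.0514) or CLIK148 plus CpG replicate 1 (0.0673). Over 11 alternatives on the unpaired fit the adjusted p ran between 0.0150 and 0.896 for TNF and between 0.0064 and 0.359 for CpG with CLIK148. CpG minus TNF was -0.01, with an interval of -0.15 to 0.13 in the paired fit.

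Ccr2, the Ccl2 receptor that draws monocytes into tissue, differed most between the experiments. It measured 12.07 and 9.67 log2 in CLIK148 plus CpG cultures, 11.98 and 10.05 in CpG cultures, 11.50 and 9.28 in CA074Me plus TNF cultures, and 12.18 and 10.06 in TNF cultures. It measured 13.08 and 10.56 in CLIK148 cultures, 13.01 and 10.15 in CA074Me cultures, and 13.15 and 10.53 in DMSO cultures. Within each experiment, all 4 stimulated arrays lay below all 3 unstimulated arrays. Across experiments every group overlapped every other.

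In the unpaired fit no Ccr2 stimulus difference was called, at limma adjusted p of 0.784 to 0.924. In the paired fit Ccr2 was lower in CpG than in DMSO cultures by -0.82 ± 0.19 log2, with an adjusted p of 0.0204 in limma (-1.17 and -0.48 in experiments 1 and 2). CLIK148 plus CpG minus CLIK148 was -0.95 ± 0.19, with an adjusted p of 0.0152 in the paired limma fit (-1.01 and -0.89). CA074Me plus TNF minus CA074Me was -1.19 ± 0.19, or 2.28-fold lower, with an adjusted p of 0.0066 in the paired limma fit (-1.51 and -0.87). TNF minus DMSO was -0.72 and missed the threshold in the paired limma fit (adjusted p = 0.0809).

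The paired Ccr2 calls were lost with the mean of its 4 probe sets, at limma adjusted p of 0.0750 for CpG, 0.0673 for CpG with CLIK148 and 0.0617 for TNF with CA074Me. They were also lost without some single arrays: DMSO replicate 1 (0.176), DMSO replicate 2 (0.0518) or CpG replicate 1 (0.161) for CpG, CLIK148 replicate 1 (0.130), CLIK148 replicate 2 (0.0617) or CLIK148 plus CpG replicate 1 (0.104) for CpG with CLIK148, and CA074Me replicate 1 (0.0691) or CA074Me plus TNF replicate 1 (0.0503) for TNF with CA074Me. Over 13 alternatives on the unpaired fit the adjusted p ran between 0.0204 and 0.967, 0.0152 and 0.947, and 0.0066 and 0.991 for these in that order.

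Probe sets differed in size more than in direction. The second Ccr1 probe set was lower by -0.70 log2 in CpG than in DMSO cultures (-1.03 and -0.38 in experiments 1 and 2), with an adjusted p of 0.0643 in limma and 0.0166 with the block, both adjusted over all probe sets that passed the filter. It was lower by -0.62 in CLIK148 plus CpG than in CLIK148 cultures (adjusted p = 0.115 in limma, 0.0292 with the block). In the TNF comparisons it was not called in either limma fit, with -0.50 for TNF minus DMSO (adjusted p = 0.468 unpaired, 0.122 paired) and -0.48 for CA074Me plus TNF minus CA074Me (0.240 unpaired, 0.0781 paired). The 3 other Ccr2 probe sets gave CpG minus DMSO differences of -0.84, -0.82 and -0.61. None of these was called in the paired limma fit (adjusted p = 0.0655, 0.0601 and 0.302). The last was -1.17 in experiment 1 and -0.05 in experiment 2. The first was called, paired, in CLIK148 plus CpG against CLIK148 (0.0418) and in CA074Me plus TNF against CA074Me (0.0412), and the others were not. In experiment 2 the CA074Me plus TNF minus CA074Me difference was -0.75, -0.26 and 0.05 for these 3, against -0.87 for the kept one.

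**Figure D2:**
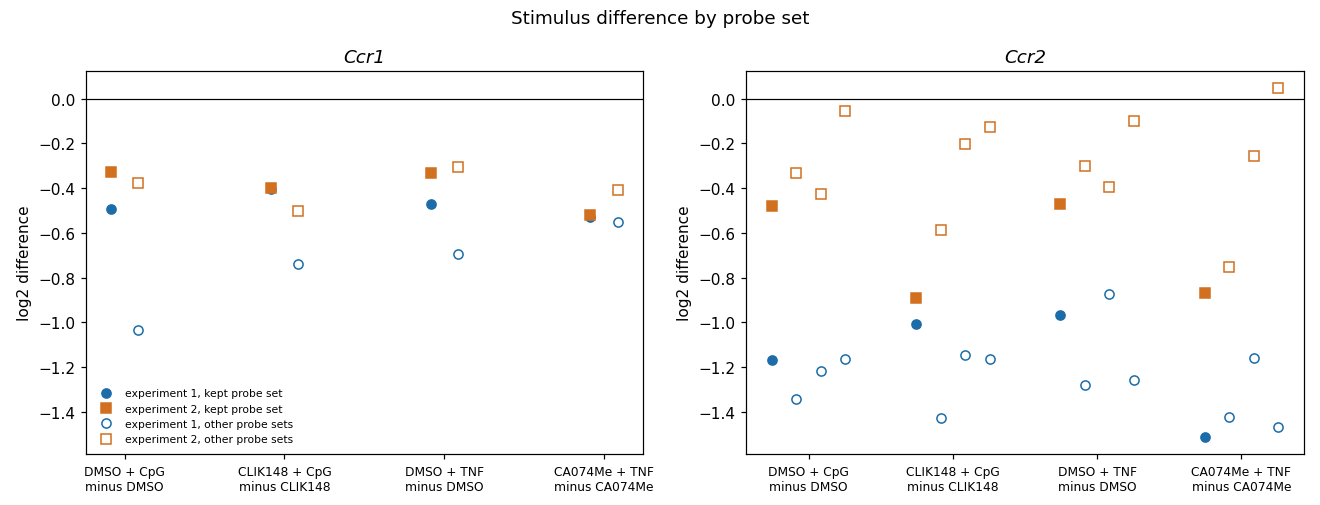
Stimulus minus no stimulus (log2 difference, vertical axis) for each single-gene probe set of Ccr1 (2 probe sets) and Ccr2 (4), in 4 comparisons. Circles are experiment 1, squares experiment 2, and filled symbols mark the kept probe set. Differences lie below 0 except for 1 Ccr2 probe set in experiment 2, at 0.05.

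Ccr1 and Ccr2 lie on chromosome 9, as do Cx3cr1 and Ccrl2, so 4 of the 7 members share it. RefSeq promoter windows (GRCm38.p6, the C57BL/6J reference, while the cells were BALB/c) were found for 6 of the 7 members, each 300 bases long around an annotated transcript start, and Ccr7 had no entry. The Ccr1 window and the printed Ccrl2 window lie mostly before the gene's annotated span, and the Ccr2 window lies wholly inside it. The windows of Ccr1, Ccr2 and Ccrl2 are printed because the first 2 were both called lower in 3 comparisons by the paired fit and the third had the widest CpG difference in experiment 1. They were searched on both strands for a kappaB pattern (GGG, any 5 bases, CC), an AP-1 pattern (TGANTCA), an interferon response pattern (GAAA, any 2 bases, GAAA) and an ETS core (GGAAGT). Of 32851 windows of all genes, 50.8%, 7.81%, 3.44% and 23.8% held these patterns in that order. Capitals mark matches, and all of them are to the kappaB pattern. Ccr1 (chr9:123968643-123968942, minus strand) held 1, at -74 from the start, Ccr2 (chr9:124101933-124102232, plus strand) held none, and Ccrl2 (chr9:111057469-111057768, minus strand, the first of its 3 windows) held 3, at -68, -56 and -55, of which the last 2 overlap.
Ccr1: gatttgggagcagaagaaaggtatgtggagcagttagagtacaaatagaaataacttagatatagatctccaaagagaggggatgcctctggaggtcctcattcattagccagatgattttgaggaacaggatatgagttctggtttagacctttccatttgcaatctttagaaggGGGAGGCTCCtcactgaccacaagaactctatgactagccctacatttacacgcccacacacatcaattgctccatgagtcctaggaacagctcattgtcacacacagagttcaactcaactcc
Ccr2: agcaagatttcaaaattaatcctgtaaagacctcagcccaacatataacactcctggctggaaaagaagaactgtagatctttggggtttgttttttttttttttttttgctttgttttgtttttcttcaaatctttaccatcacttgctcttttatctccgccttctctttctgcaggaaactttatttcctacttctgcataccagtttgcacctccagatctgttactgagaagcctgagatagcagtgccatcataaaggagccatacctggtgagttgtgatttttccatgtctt
Ccrl2: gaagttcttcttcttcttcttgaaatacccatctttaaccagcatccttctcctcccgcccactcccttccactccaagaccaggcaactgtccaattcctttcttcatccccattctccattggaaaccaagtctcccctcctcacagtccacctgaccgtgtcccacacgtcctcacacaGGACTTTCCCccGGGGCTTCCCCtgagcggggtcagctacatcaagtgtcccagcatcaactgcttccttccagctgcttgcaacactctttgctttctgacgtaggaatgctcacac
The kappaB pattern is short and loose enough to be in about as many windows as not, so a match here describes the letters only.

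Cxcr4, the Cxcl12 receptor that holds precursors in marrow, did not pass the test in any comparison of treatment groups. It measured 10.13 and 10.81 log2 in CLIK148 plus CpG cultures, 10.06 and 10.75 in CpG cultures, 11.03 and 11.03 in CA074Me plus TNF cultures, and 10.77 and 10.84 in TNF cultures. It measured 10.37 and 10.71 in CLIK148 cultures, 10.57 and 10.65 in CA074Me cultures, and 10.38 and 10.70 in DMSO cultures. The 4 TNF arrays lay above all other arrays except that the CLIK148 plus CpG array of experiment 2 exceeded the TNF array of experiment 1. TNF minus DMSO was 0.26 ± 0.26 (adjusted p = 0.858 in limma) and CA074Me plus TNF minus CA074Me was 0.42 ± 0.26 (0.602), and in both the groups did not overlap. CpG minus DMSO was -0.32 in experiment 1 and 0.06 in experiment 2. CpG minus TNF was -0.40, with an adjusted p of 0.906 in limma, and the groups did not overlap.

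Cx3cr1, the receptor of the membrane-bound chemokine Cx3cl1, lay between 8.17 and 9.05 log2. Its levels were 8.63 and 8.27 in CLIK148 plus CpG cultures, 8.50 and 8.20 in CpG cultures, 8.78 and 8.37 in CA074Me plus TNF cultures, and 9.05 and 8.20 in TNF cultures. They were 8.41 and 8.17 in CLIK148 cultures, 8.23 and 8.18 in CA074Me cultures, and 8.48 and 8.22 in DMSO cultures. The highest array was TNF in experiment 1, while in experiment 2 the TNF and CpG arrays were level. TNF minus DMSO was 0.56 in experiment 1 and -0.02 in experiment 2 (adjusted p = 0.860 in limma). CA074Me plus TNF minus CA074Me was 0.37 ± 0.27, with an adjusted p of 0.670 in limma and 0.151 with the block. Its second probe set never exceeded 7.35 log2, under the filter.

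Ackr3, a scavenger of Cxcl12 and Cxcl11, was not called under a stimulus in either fit. It measured 7.26 and 8.61 log2 in CLIK148 plus CpG cultures, 7.25 and 8.50 in CpG cultures, 7.19 and 8.24 in CA074Me plus TNF cultures, and 7.27 and 8.49 in TNF cultures. It measured 7.99 and 8.70 in CLIK148 cultures, 7.31 and 8.26 in CA074Me cultures, and 7.83 and 8.76 in DMSO cultures. In each experiment DMSO and CLIK148 were the 2 highest groups. CpG minus DMSO was -0.42 (-0.58 and -0.26 in experiments 1 and 2), with an adjusted p of 0.783 in limma and 0.0608 with the block. TNF minus DMSO was -0.41, with an adjusted p of 0.905 in limma and 0.137 with the block. In experiment 1, 5 of 7 arrays lay under the overall median.

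Ccrl2, which binds chemerin and presents it to other cells, was far apart from DMSO under CpG in experiment 1 and close to it in experiment 2. It measured 12.71 and 10.87 log2 in CLIK148 plus CpG cultures, 12.99 and 10.85 in CpG cultures, 11.63 and 11.24 in CA074Me plus TNF cultures, and 11.83 and 10.89 in TNF cultures. It measured 10.79 and 10.89 in CLIK148 cultures, 10.45 and 10.54 in CA074Me cultures, and 10.77 and 10.80 in DMSO cultures. CpG minus DMSO was 2.22 in experiment 1 and 0.04 in experiment 2, a mean of 1.13 ± 0.71 with an adjusted p of 0.436 in limma. CLIK148 plus CpG minus CLIK148 was 1.92 in experiment 1 and -0.02 in experiment 2 (0.518). CA074Me plus TNF minus CA074Me was 1.18 and 0.71, a mean of 0.94 (0.693). The difference between the experiments in these values was not tested.

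**Figure D3:**
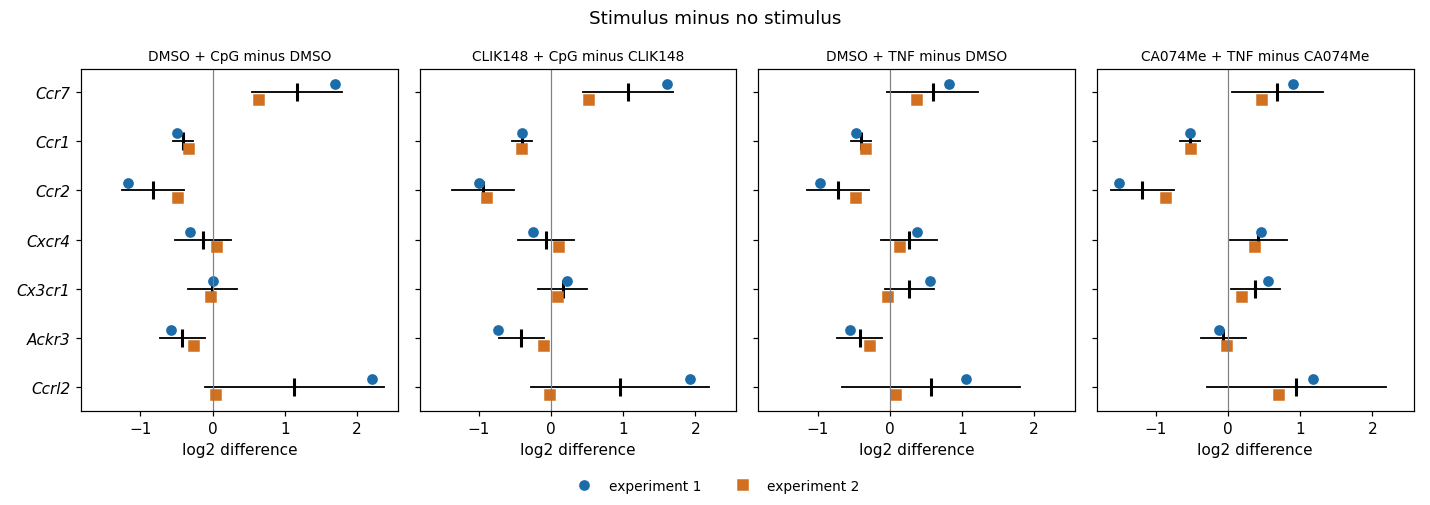
Stimulus minus no stimulus (log2 difference, horizontal axis) for the 7 receptors in 4 comparisons. Circles are experiment 1, squares experiment 2, vertical ticks the mean, and lines the 95% interval of the paired fit. Ccr1 and Ccr2 lie below 0 in both experiments in all 4 panels, Ccr7 above 0, and Ccrl2 under CpG is far apart between experiments.

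Counted over the members, the paired fit called 3 of 7 in CpG against DMSO (1 higher, 2 lower), beside 19.9% of all tested genes, and 3 of 7 in CLIK148 plus CpG against CLIK148 (1 higher, 2 lower), beside 17.1%. It called 2 of 7 in CA074Me plus TNF against CA074Me, both lower, beside 11.1%, and 1 of 7 in TNF against DMSO, beside 3.11%. For CpG against DMSO this count was 0 without DMSO replicate 1, 1 without CpG replicate 1 and 5 without CpG replicate 2. The unpaired limma fit called 0 of 7 in CLIK148 plus CpG against CLIK148, beside 0.813% of all tested genes. There 2 members had an unadjusted p under 0.05, beside 16.6% of all tested genes. In TNF against DMSO the unpaired fit called 0 of 7, beside 0.115%. There 1 member had an unadjusted p under 0.05, beside 7.22%. Over any group the paired fit called 4 of 7, Ccr7, Ccr1, Ccr2 and Ackr3, beside 17.3%. That count was 2 without either DMSO, CA074Me or CA074Me plus TNF replicate, or without CLIK148 replicate 1 or TNF replicate 1. In CpG against TNF no member was called by limma in either fit, beside 0.00822% of genes unpaired and 0.435% paired. Members with an unadjusted p under 0.05 numbered 0 unpaired and 1 paired, beside 6.35% and 15.7% of all tested genes. The median member difference was -0.13 in CpG against DMSO, where the median of all tested genes was -0.05.

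No inhibitor comparison was called for any member by limma, in either fit, and so the inhibitors are described by values and intervals. Calls were 0% of all tested genes for CLIK148 against DMSO, CA074Me against DMSO, CLIK148 against CA074Me, CLIK148 plus CpG against CpG, and both inhibitor-by-stimulus interactions, unpaired and paired. For CA074Me plus TNF against TNF they were 0% unpaired and 0.00822% paired. In these comparisons 0.0986% to 0.805% of genes unpaired and 0.37% to 3.04% paired had an unadjusted p under 0.05. That is below the share groups without a difference would give. Whether these tests are too cautious was not tested, and a missed threshold does not show that values did not differ.

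With CLIK148, no member had an unadjusted p under 0.05 against DMSO or, with CpG, against CpG, in either fit. Ccr7 in CLIK148 plus CpG cultures lay below CpG cultures by -0.21 (-0.21 and -0.22), with a paired interval of -0.84 to 0.42. Ccr1 differed by 0.01, with a paired interval of -0.13 to 0.15. The interval for Ccrl2 was wide, -1.37 to 1.11.

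With CA074Me, the members that bore the lowest unadjusted p in the paired fit were Ackr3 and Ccr2. Ackr3 was lower in CA074Me than in DMSO cultures by -0.51 log2 in both experiments, with a paired interval of -0.82 to -0.20. The unadjusted p was 0.0050 and the adjusted p 0.99998 in the paired limma fit. The CA074Me array of experiment 1, at 7.31 log2, lay under the overall median of 7.52. Between the inhibitors, Ackr3 in CLIK148 cultures exceeded CA074Me cultures by 0.56 (0.68 and 0.45), with a paired interval of 0.25 to 0.87. Both Ackr3 differences use the same CA074Me arrays. Ccr2 in CA074Me plus TNF cultures lay below TNF cultures by -0.73 (-0.68 and -0.78), with a paired interval of -1.17 to -0.30. For Ccr2 the unadjusted p was 0.0041 and the adjusted p 0.9998 in the paired limma fit. Ccr1 lay below by -0.18 (-0.13 and -0.23), with a paired interval of -0.32 to -0.04. In this comparison the other Ccr2 probe sets gave -0.60 (-0.57 and -0.64), -0.22 (-0.41 and -0.03) and -0.17 (-0.36 and 0.02). Ccrl2 in CA074Me cultures lay below DMSO cultures by -0.32 and -0.27, and the 2 groups did not overlap.

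**Figure D4:**
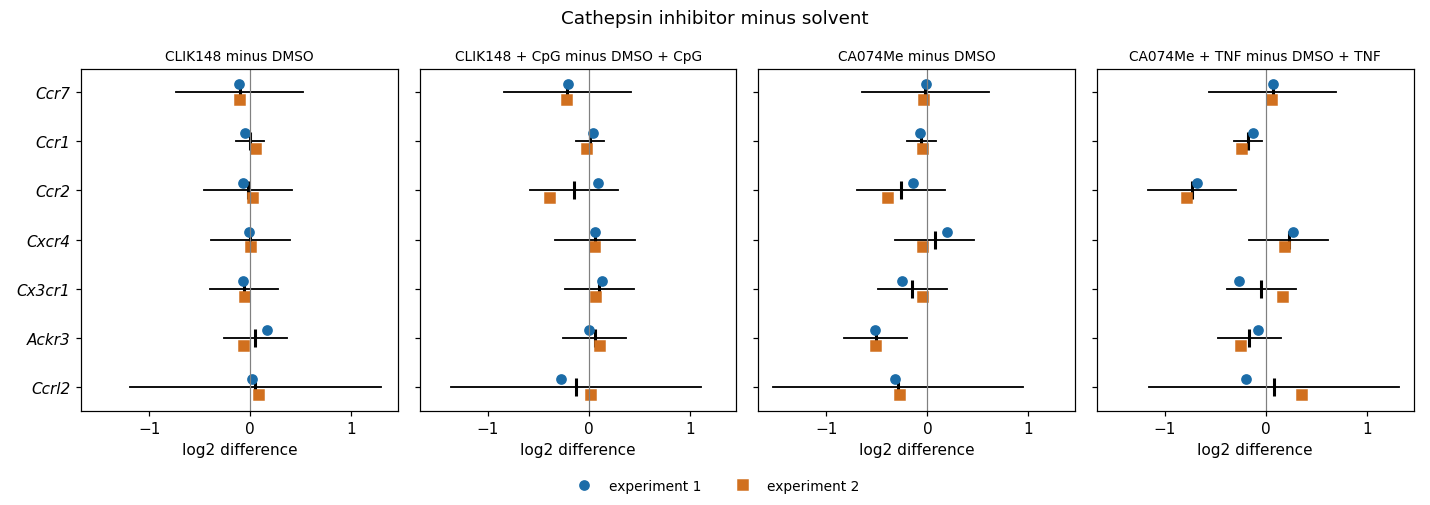
Inhibitor minus solvent (log2 difference, horizontal axis) for the 7 receptors without a stimulus and with CpG or TNF. Circles are experiment 1, squares experiment 2, vertical ticks the mean, and lines the 95% interval of the paired fit. Ackr3 with CA074Me alone, and Ccr1 and Ccr2 with CA074Me plus TNF, have intervals that leave out 0. Only the kept probe set of each gene is shown.

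The 2 experiments themselves differed for most members. In the paired fit 5 of 7 members differed between experiments 2 and 1, beside 44.6% of all tested genes. Ccr2 ranged over 9.28 to 10.56 log2 in experiment 2 and 11.50 to 13.15 in experiment 1, a difference of -2.38 ± 0.10, or 5.22-fold lower (adjusted p = 1.2e-06 in limma), and was higher in experiment 2 in 0 of 7 groups. Ackr3 was higher in experiment 2 in 7 of 7 groups, by 1.07 ± 0.07 (adjusted p = 1.3e-05 in limma). Ccr7 was higher by 0.49 and Cxcr4 by 0.31, and Cx3cr1 was lower by -0.35, with limma adjusted p of 0.0246, 0.0238 and 0.0068. Ccr1 (-0.07) and Ccrl2 (-0.73) did not pass the test (adjusted p = 0.135 and 0.0707 in limma).

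Among the 8 macrophage and monocyte markers on the array, Mrc1, the mannose receptor, moved in the same way as Ccr2. It measured 8.19 to 9.01 log2 in experiment 2 and 10.41 to 11.68 in experiment 1, a difference of -2.41. Of the 7 such markers tested, 1 was higher and 4 were lower in experiment 2, beside 44.6% of all tested genes called. Their median was -0.54, beside 0.05 over all tested genes. The mean level of the list ran from 10.71 to 11.04 in experiment 2 and from 11.11 to 11.56 in experiment 1. Cd163 never exceeded 7.25. For dendritic cell markers the median was 0.02 (2 higher, 2 lower of 10, beside the same 44.6%). The part of cell makeup in the Ccr2 gap was not tested.

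**Figure D5:**
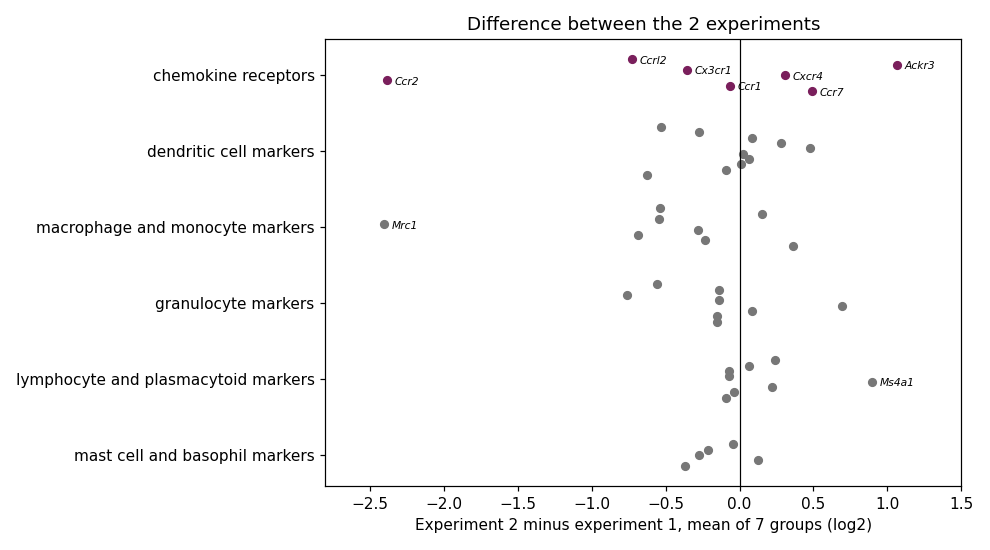
Experiment 2 minus experiment 1, mean over 7 groups (log2 difference, horizontal axis), for the 7 receptors (coloured) and for each gene of 5 marker lists (grey). Ccr2 and Mrc1 lie furthest to the left, at -2.38 and -2.41, and Ackr3 furthest to the right of the receptors, at 1.07.

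Markers also moved with the stimuli. In CpG against DMSO, Clec10a, a lectin of dendritic cells, was lower by -1.60 (adjusted p = 0.0326 in limma). It was 1 of 10 dendritic cell markers called, beside 1.92% of all tested genes. In the paired fit 3 of 7 macrophage and monocyte markers were also called lower, beside 19.9% of all tested genes called. They were Mrc1 (-0.89), Csf1r (-0.40) and Cd68 (-0.32), with adjusted p of 0.0339, 0.0232 and 0.0438 in limma. The list's mean level in CpG cultures was 11.56 and 10.84, against 11.54 and 11.04 in DMSO cultures. Of its 7 tested genes 3 lay above 0, and the median difference was -0.10, beside -0.05 over all tested genes. In CA074Me plus TNF against CA074Me, the paired fit called Mrc1 lower by -0.90 (adjusted p = 0.0447 in limma), 1 of 7 macrophage and monocyte markers, of which 1 lay above 0. The median of that list was -0.29, beside -0.02 over all tested genes, and its mean level was 11.11 and 10.71 in CA074Me plus TNF cultures, against 11.47 and 10.96 in CA074Me cultures. Beside 11.1% of all tested genes, the paired fit called 1 of 10 dendritic cell markers higher and 2 lower there. Among these markers was Clec10a, lower by -1.29 (adjusted p = 0.0095 in limma). Their part in the Ccr1 and Ccr2 differences was not tested.

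Among ligands of the members, 10 of 13 were tested and 1 was called in CpG against DMSO, beside 1.92% of all tested genes. Cx3cl1, the ligand of Cx3cr1, averaged 10.19 log2 in CpG cultures and 9.56 in DMSO cultures, a difference of 0.64 ± 0.13 (0.43 and 0.85 in experiments 1 and 2, adjusted p = 0.0496 in limma). The paired fit also called Ccl3, a ligand of Ccr1, at 14.41 and 12.51 in CpG cultures and 11.51 and 11.47 in DMSO cultures (adjusted p = 0.0280 in the paired limma fit, 0.129 unpaired). The paired fit thus called 2 of the 10 ligands in this comparison, beside 19.9% of all tested genes. Cx3cl1 was also called by the paired fit, and not by the unpaired one, in CLIK148 plus CpG against CLIK148, higher by 0.54 (limma adjusted p = 0.0081 paired, 0.0979 unpaired), and in CA074Me plus TNF against CA074Me, higher by 0.52 (0.0086 paired, 0.123 unpaired). The median ligand difference in CpG against DMSO was 0.61, beside -0.05 over all tested genes. In TNF against DMSO no ligand was called in either limma fit, with a median of 0.06, beside -0.05 over all tested genes.

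Of 15 tested other chemoattractant receptors, none was called by the unpaired limma fit under a stimulus, and the paired fit called Ccr6 lower and no other in CpG against DMSO. That is 1 of 15, beside 19.9% of all tested genes. Ccr6, the receptor of Ccl20, measured 7.73 and 9.50 log2 in CpG cultures, against 10.12 and 11.07 in DMSO cultures, a difference of -1.97 ± 0.27 (adjusted p = 0.0033 in the paired limma fit). The paired fit called Ccr9 in TNF against DMSO, higher by 0.34 (adjusted p = 0.0328 in limma). It was 1 of the 15 called there, beside 3.11% of all tested genes. Ccr9 measured 7.90 and 7.74 log2 in TNF cultures and 7.60 and 7.37 in DMSO cultures, close to the overall median of 7.52. In CA074Me plus TNF against CA074Me the paired fit called 2 of the 15 higher and 1 lower, beside 11.1% of all tested genes. Ccr6 was lower by -1.32, and Fpr2, a formyl peptide receptor, and Ccr9 were higher by 0.52 and 0.32.

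Among 25 genes of receptor signalling and desensitisation, Rgs2, a regulator that shuts off G protein signals, was the 1 called in 3 stimulus comparisons. It measured 11.55 and 11.65 log2 in CpG cultures, against 12.36 and 12.37 in DMSO cultures, a difference of -0.77 ± 0.13 (adjusted p = 0.0270 in limma). It was lower by -0.92 in CLIK148 plus CpG against CLIK148 (0.0165) and by -0.94 in CA074Me plus TNF against CA074Me (0.0104). The unpaired fit called 1.92%, 0.813% and 1.31% of all tested genes in these 3 comparisons, in that order. Beside 19.9% of all tested genes, the paired fit called 4 of the 25 higher and 5 lower in CpG against DMSO. Among these Rgs1, another such regulator, was higher by 2.30, and Rgs18 and Gng2, a G protein gamma subunit, were lower by -0.72 and -0.67 (adjusted p = 0.0333, 0.0135 and 0.0022 in the paired limma fit).

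Likeness between genes was measured as Pearson's r over 14 arrays after each experiment's mean was removed. It is a description, since arrays share treatments. The genes most like Ccr7 were Kdm4a, Ppp4r2 and Rnf19b (r = 0.993, 0.988 and 0.987). Those most like Ccr1 were Mef2c, Arhgap15 and Gng2 (0.991, 0.991 and 0.990), and those most like Ccr2 were Celf2, Slc16a14 and Arhgef39 (0.970, 0.964 and 0.963). For Ccrl2 they were Hspa1b, Cfb and Rffl (0.990, 0.989 and 0.986). Cxcr4 was most like Slc39a4, Hvcn1 and Dtx4 (0.954, 0.954 and 0.953), Cx3cr1 like Rtn4rl2, Ppm1n and Snx22 (0.952, 0.941 and 0.919) and Ackr3 like Clcn3, Aifm2 and Dixdc1 (0.942, 0.919 and 0.907). Without the 2 arrays farthest from the median, r for Snx22 with Cx3cr1 fell to 0.663. Among the members r was 0.954 for Ccr1 with Ccr2, 0.932 for Ccr7 with Ccrl2 and -0.802 for Ccr7 with Ccr1.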

How the data were processed

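RNA of 14 cultures was labelled from 100 ng and hybridised to Affymetrix mouse arrays, per the labels' protocols. The deposited log2 values are RMA summaries that the authors computed with R 3.0.1, per the submitters' processing notes, whose settings the sources used here do not give. RMA normalises quantiles, so a shift shared by most genes would be removed. How long the stimulus lasted is likewise unstated in them.

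Of 45101 probe sets, 34945 had a single gene, 932 several, 9160 none and 64 were controls. Of the single-gene sets 34741 matched RefSeq and 0 symbols changed. Group differences came from limma 3.58.1 (R 4.3.3), with 7 groups in 1 model (7 residual degrees of freedom), with 2-sided p-values adjusted by Benjamini-Hochberg over 12172 genes within each of 12 comparisons, called under 0.05. Intervals are 95%. The code was tested on simulated data.

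The design text describes experiments done independently, and replicate numbers in the labels were read as experiments. Replicate differences correlated with r of 0.455 to 0.935 over 21 pairs of groups, so the numbers pair the arrays. The paired fit adds the experiment as a replicate block, with 6 residual degrees of freedom. It is printed where it alters a call. The number of arrays limits the precision.

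The members and gene lists were chosen with earlier results of these data known. Genes named are all members, the 3 most like each, and per list and comparison at most 3 called genes or else the 2 largest, of which only some are printed. Listed genes without a single-gene probe set were not analysed here. Alternatives were the replicate block, no filter, mean of probe sets, other probe sets, cyclic loess, reference-gene scaling (7 of 9 reference genes), the compared groups alone and leaving out 1 array. Promoter patterns were first searched as printed. Narrower kappaB letters and another ETS core were then tried after the windows had been read and were dropped, since they had been picked to match.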

Additional observations from a re-analysis of the deposited data

How the results depend on the processing

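The replicate block had the widest effect on counts. With it, members called numbered 3 in CpG against DMSO, 1 in TNF against DMSO, 3 in CLIK148 plus CpG against CLIK148, 2 in CA074Me plus TNF against CA074Me and 4 over any group. All genes called then numbered 2420, 379, 2077, 1355 and 2111 in that order, 53 in CpG against TNF and 1 in CA074Me plus TNF against TNF, where the unpaired fit called 234, 14, 99, 159, 226, 1 and 0. Fits of the compared groups alone called 0 members and 0 genes in each of these stimulus comparisons and in CpG against TNF. Cyclic loess gave 23 genes for TNF against DMSO and 175 for CLIK148 plus CpG against CLIK148. Mean of probe sets gave 2 genes for CpG against TNF and 0 members for CA074Me plus TNF against CA074Me, and reference-gene scaling 0 members for CpG against DMSO. Leaving out 1 array, unpaired, gave 0 to 1 members and 1 to 1611 genes for CpG against DMSO, 0 to 5 genes for TNF against DMSO, 0 to 1 for CpG against TNF, 1 to 44 for CLIK148 plus CpG against CLIK148, 0 members and 5 to 59 genes for CA074Me plus TNF against CA074Me, and 0 to 1 members and 63 to 417 genes over any group.

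Alternatives within the paired fit were chosen after seeing the data. The share of all tested genes that they called is not given here. Their counts of members, here and above, therefore cannot be read as particular to the receptors. The compared groups alone, paired, called 0 members for CpG, TNF and CpG with CLIK148 and 6 for TNF with CA074Me, each fit with 1 pair of groups, and mean of probe sets called 1 for TNF with CA074Me. Without 1 array the paired fit called 0 to 5 members for CpG, 0 to 1 for TNF, 0 to 4 for CpG with CLIK148, 1 to 2 for TNF with CA074Me and 2 to 4 over any group. Of 1196 alternatives for single member differences, 1064 kept the call or stayed within the spread, 43 lost a call, 14 gained one and 75 moved, no called difference turned its sign, and 139 uncalled ones did. The cause of these shifts was not tested. An unpaired fit without 1 array carries the experiment gap into the comparison.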

Other observations

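Cd209a, a lectin of monocyte-derived dendritic cells, measured lower under the stimulus in all 4 stimulus comparisons, and the paired fit called 3 of them. The paired limma fit gave differences of -1.48 in CpG against DMSO, -1.50 in CLIK148 plus CpG against CLIK148 and -1.63 in CA074Me plus TNF against CA074Me (adjusted p = 0.0234, 0.0255 and 0.0230), and the unpaired fit 0.162, 0.180 and 0.188. In TNF cultures it measured 7.94 and 7.95 log2, against 9.86 and 8.66 in DMSO cultures, a difference of -1.31 that was not called in either limma fit (adjusted p = 0.0851 paired, 0.553 unpaired). Flt3, the receptor of a dendritic cell growth factor, was higher by 0.55 in CA074Me plus TNF against CA074Me in the paired limma fit (adjusted p = 0.0087, 0.0540 unpaired). Pik3r5, a regulatory subunit of the lipid kinase downstream of chemokine receptors, was higher there by 0.62 (0.0016 paired, 0.204 unpaired).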
